A study of Homo sapiens with 12 samples.

Results

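The transcriptomes of A549 cells labelled as lacking poly(ADP-ribose) polymerase 3 (PARP3) and of wild-type A549 cells were compared in the absence of drug. The libraries were chosen by their labels: 3 RNA-seq libraries from PARP3-/- cells and 3 from wild-type (WT) cells, that is, 6 of the 12 libraries of the series. A549 is an epithelial line from a human lung adenocarcinoma. Both groups received vehicle (DMSO) for 24 h and were grown in the same medium, so genotype is the only labelled difference between them. The study made the PARP3-/- cells by transient Cas9 cutting with a pair of guides, puromycin selection and cloning by serial dilution. Which clone or how many clones gave the RNA is not given in the sources used here, and a difference between clones of A549 cannot be told apart from an effect of PARP3 loss. The other 6 libraries received 1 μM pyridostatin, a ligand of G-quadruplex DNA, and are used below only to set values side by side. Of 25365 names in the deposited table, 11817 had a mean of at least 1 FPKM (fragments scaled to transcript length and to the mapped reads of the library) over the 6 vehicle libraries and were tested.

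PARP3 is a nuclear ADP-ribosyltransferase that is activated by DNA breaks and acts in their repair by end joining. A549 cells keep traits of several epithelia: they make mucins and antimicrobial proteins of the airway, a set of plasma proteins that the liver also makes, and many detoxifying enzymes, the last under a constitutively active NRF2 because the line carries inactive KEAP1. An epithelial cell in culture also lays down basement membrane, secretes proteases and their inhibitors, and releases cytokines.

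The level of PARP3 was examined first, as a check of the labels. It was 3.83, 3.4 and 3.96 FPKM in wild type and 4.92, 4.07 and 4.25 FPKM in the libraries labelled PARP3-/-, so the libraries labelled PARP3-/- lay above those of wild type (by 0.683 FPKM on average; p = 0.1 in an exact permutation test, two-sided, and 3 libraries against 3 can give no smaller p). The PARP3 transcript was thus not lower where the label gives the gene as lost, and every direction below is that of the labels. FPKM values over the whole gene cannot show whether a part of the first exon is missing. Of 11 tested genes within 250 kb of PARP3 on chromosome 3 (RefSeq, GRCh38.p14), 1 passed the test, beside 4.3% of all tested genes. It was DUSP7, a phosphatase that acts on MAP kinases, at 2.95, 3.2 and 3.01 FPKM in wild type and 4.34, 4.93 and 4.58 FPKM in the libraries labelled PARP3-/- (log2 fold change 0.47 ± 0.0636, adjusted p = 0.0123). The others ran from -0.19 to 0.15 on the log2 scale, apart from the read-through name ABHD14A-ACY1 at 1.23 (adjusted p = 0.0732), whose reads cannot be separated from those of its 2 parent genes.

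Among the libraries, wild-type replicate 2 stood apart. The summed FPKM was 563473 in wild-type replicate 2 and 503974 to 525124 in the other 5. When genes were put into 4 equal classes by transcript length, those of the longest class had a median log2 deviation of -0.12 in wild-type replicate 2 from the other wild-type libraries, and those of the shortest class had one of 0.017. The longest class was also the one with the highest median difference between genotypes (0.035, against 0.0032 to 0.013 in the other classes). For this reason list counts are also given without this library where that moves them by over 1.5 times. Absolute depth is not given with FPKM, but steps in the values of very short RNAs gave relative depths from 0.874 to 1.17 of that of wild-type replicate 1. The lowest, that of PARP3-/- replicate 3, rested on 3 of 54 short RNAs, against 13 to 18 in the other vehicle libraries compared.

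Each gene was tested with limma on log2(FPKM + 1), over all 11817 genes together. Values after ± are standard errors of the log2 fold change, which understates the change of genes with low FPKM, and adjusted p-values are those of Benjamini and Hochberg. At an adjusted p under 0.05, 508 genes (4.3% of those tested) were called. The libraries labelled PARP3-/- were the higher group in 347 (2.94%) and the lower group in 161 (1.36%). Most changes were small: 290 of the 508 were under 0.5 in absolute log2 fold change and 172 lay between 0.5 and 1. With an absolute log2 fold change above 1 as well, 46 genes (0.389%) passed both thresholds, 20 of them higher and 26 lower. In all 46 the values of the groups did not overlap, which was so for 24.2% of all tested genes. The 46 comprised 42 genes with longer transcripts, 3 very short RNAs and 1 spike-in sequence.

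The number called at any fold change moved with single libraries. It was 1159 without wild-type replicate 2, 240 without wild-type replicate 1, 199 without wild-type replicate 3, and 204, 168 and 186 without PARP3-/- replicates 1, 2 and 3. Without wild-type replicate 2, 497 of the 508 genes were again called. In that fit 739 genes were called higher and 420 lower, so list counts without this library stand beside more calls over all genes. The count past both thresholds was steadier, at 45 to 52. The share of called genes that were higher was 68.3%, and it was 60.2% after quantile normalization and 56.9% after a shift of all libraries to one median.

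**Figure D1:**
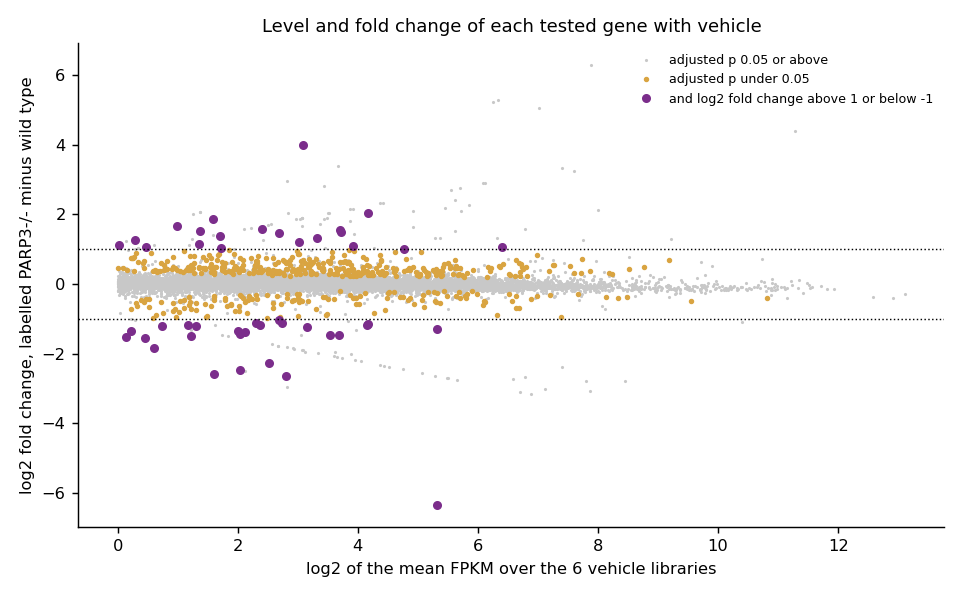
Log2 fold change (libraries labelled PARP3-/- minus wild type) of each of the 11817 tested genes against the log2 of its mean FPKM over the 6 vehicle libraries. Orange points have an adjusted p under 0.05 and the 46 purple points also lie beyond the dotted lines at 1 and -1. Of the grey points beyond the dotted lines, 107 of 115 are very short RNAs.

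Among genes of airway secretion and mucosal defence, those that passed were all lower in the libraries labelled PARP3-/- with all 6 libraries in the fit. Of 34 members listed, 16 were tested, and 0 of them rose, 8 fell and 8 did not pass, and 7 of those that fell passed both thresholds. Its median was -0.44 on the log2 scale, beside 0.015 over all tested genes. The gene lists used here and below were chosen with earlier results of these data known, so their counts and shares only describe their members. Every list count stands beside the shares over all tested genes, 2.94% called higher and 1.36% called lower. SPINK6, an inhibitor of kallikrein proteases, was at 7.09, 6.5 and 4.29 FPKM in wild type and 0.237, 0.143 and 0.0786 FPKM in the libraries labelled PARP3-/- (log2 fold change -2.57 ± 0.164, adjusted p = 0.000687). DEFB1, the constitutive epithelial beta-defensin, was at 6.89, 9.28 and 6.72 FPKM in wild type and 0.862, 0.735 and 0.162 FPKM in the libraries labelled PARP3-/- (log2 fold change -2.46 ± 0.202, adjusted p = 0.00178). SPINK6 was thus close to absent and DEFB1 under 1 FPKM in every library labelled PARP3-/-, and both were clearly present in every wild-type one. SUSD2, a membrane protein with sushi domains, was at 17.5, 17.9 and 17.2 against 5.4, 6.06 and 5.94 FPKM (log2 fold change -1.45 ± 0.0546, adjusted p = 0.000169), the wild-type values being given first here and below.

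The gel-forming airway mucin MUC5B, the tumour marker CEACAM5 and the leukocyte protease inhibitor SLPI were among the calls too. MUC5B was at 6.94, 4.97 and 6.82 FPKM in wild type and 1.94, 1.85 and 1.68 FPKM in the libraries labelled PARP3-/- (log2 fold change -1.35 ± 0.12, adjusted p = 0.00226). CEACAM5 was at 3.62, 3.82 and 4.03 against 1.04, 1.19 and 1.03 FPKM (log2 fold change -1.21 ± 0.0681, adjusted p = 0.000437), and SLPI was at 22.5, 30.7 and 22.4 against 9.64, 11.2 and 11.1 FPKM (log2 fold change -1.16 ± 0.129, adjusted p = 0.00522). The glycerol and water channel AQP3 was at 7.05, 6.8 and 6.37 against 1.89, 2.19 and 1.84 FPKM (log2 fold change -1.38 ± 0.0709, adjusted p = 0.000326). CEACAM6, a neighbour of CEACAM5 and far more abundant, fell less, from 412, 398 and 410.5 to 294, 319 and 324 FPKM (log2 fold change -0.38 ± 0.0566, adjusted p = 0.0167). CEACAM6 lost the call without any 1 library other than wild-type replicate 2 (adjusted p up to 0.094). The mucin MUC1 (0.049, adjusted p = 0.857), the goblet-cell protein AGR2 (-0.21, adjusted p = 0.223), the iron-binding defence protein LCN2 (0.42, adjusted p = 0.0697) and the trefoil factor TFF1 (0.51, adjusted p = 0.207) did not pass, and LCN2 and TFF1 had higher means in the libraries labelled PARP3-/-. Without wild-type replicate 2, 2 members of the list were called as higher and 8 as lower. In bulk RNA, fewer cells that express a gene and less of its RNA in each cell cannot be told apart.

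SPINK13, another Kazal-type inhibitor, is the gene next to SPINK6 among those tested on chromosome 5. It was at 1.58, 2.2 and 2.59 FPKM in wild type and 0.104, 0.125 and 0 FPKM in the libraries labelled PARP3-/-, and the last of these libraries is listed at 0 (log2 fold change -1.53 ± 0.133, adjusted p = 0.00218). The 2 neighbours therefore fell together, while DPYSL3, the tested gene on their other side, rose.

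**Figure D2:**
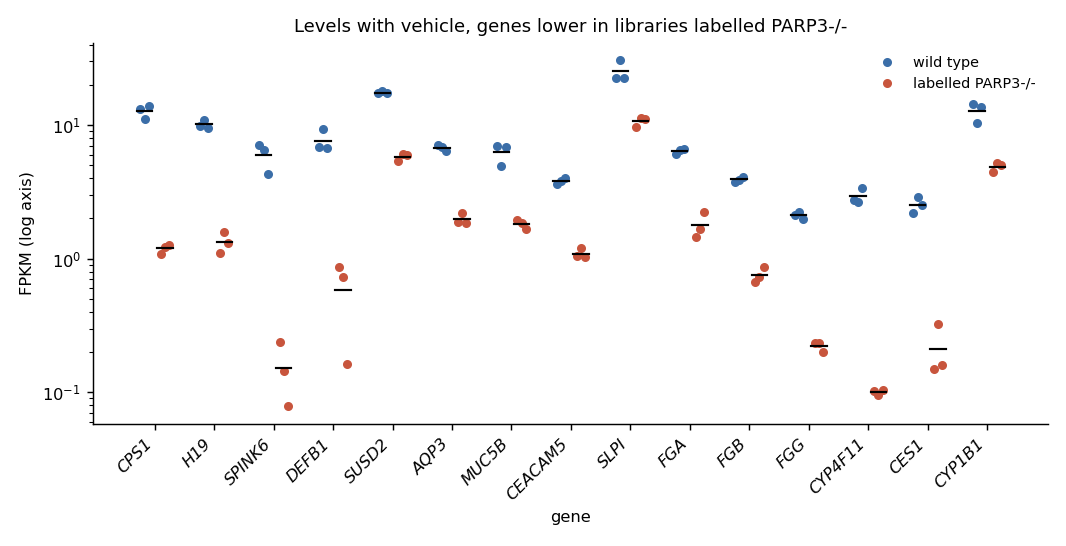
FPKM (log axis) of 15 genes in each vehicle library, with wild type in blue, libraries labelled PARP3-/- in red and a bar at the mean of 3 libraries. In each of the 15 genes all red points lie below all blue points, from CYP4F11 and SPINK6 with the widest gaps to SLPI and CYP1B1 with the narrowest.

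Of the liver-type genes, the 3 fibrinogen chains fell and most of the others did not pass. Of 27 members listed, 12 were tested, and 2 of them rose, 3 fell and 7 did not pass. FGB was at 3.76, 3.91 and 4.11 FPKM in wild type and 0.669, 0.726 and 0.871 FPKM in the libraries labelled PARP3-/- (log2 fold change -1.49 ± 0.0724, adjusted p = 0.000286). FGA was at 6.12, 6.55 and 6.65 FPKM in wild type and 1.45, 1.68 and 2.25 FPKM in the libraries labelled PARP3-/- (log2 fold change -1.42 ± 0.109, adjusted p = 0.00137). FGG was at 2.1, 2.23 and 1.99 FPKM in wild type and 0.235, 0.233 and 0.199 FPKM in the libraries labelled PARP3-/- (log2 fold change -1.35 ± 0.0703, adjusted p = 0.00033). The chains that assemble into the clotting protein fibrinogen thus had log2 fold changes of -1.35 to -1.49, and their genes lie side by side on chromosome 4 with no other tested gene between them. Of the same list, the complement component C3 rose from 42, 40.9 and 41.6 to 55.8, 57.4 and 58 FPKM (log2 fold change 0.45 ± 0.0396, adjusted p = 0.00218), and so did the C4b-binding protein chain C4BPB, from 0.644, 0.703 and 0.527 to 1.49, 1.84 and 1.95 FPKM (log2 fold change 0.76 ± 0.0932, adjusted p = 0.00798). C4BPB lost the call without PARP3-/- replicate 2 (adjusted p 0.0503).

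The sequences upstream of the fibrinogen genes are shown because the 3 genes moved together. They cover the 250 bases before the start of each gene (RefSeq, GRCh38.p14: FGB chr4:154562730-154562979, plus strand; FGA chr4:154590743-154590992, minus strand; FGG chr4:154612657-154612906, minus strand), 5′ to 3′ in the direction of the gene. Capitals mark a match, on either strand, to the C/EBP-type motif TTGCNNAA. No matches overlap.
FGB: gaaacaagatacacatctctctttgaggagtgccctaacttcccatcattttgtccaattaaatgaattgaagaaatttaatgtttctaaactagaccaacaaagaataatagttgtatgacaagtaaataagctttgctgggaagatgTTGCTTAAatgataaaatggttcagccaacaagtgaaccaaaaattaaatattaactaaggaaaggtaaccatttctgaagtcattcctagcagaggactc
FGA: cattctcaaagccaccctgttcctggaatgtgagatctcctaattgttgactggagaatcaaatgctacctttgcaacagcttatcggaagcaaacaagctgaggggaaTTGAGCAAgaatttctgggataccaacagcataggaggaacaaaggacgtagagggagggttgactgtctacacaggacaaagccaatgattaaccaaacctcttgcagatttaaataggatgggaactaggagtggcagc
FGG: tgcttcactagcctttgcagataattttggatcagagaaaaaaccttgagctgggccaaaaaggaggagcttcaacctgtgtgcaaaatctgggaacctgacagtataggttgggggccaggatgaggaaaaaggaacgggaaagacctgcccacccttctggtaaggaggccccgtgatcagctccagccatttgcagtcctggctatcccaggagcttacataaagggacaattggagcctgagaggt
FGB and FGA each held 1 match, and FGG held none in this window. Among 27305 promoters of this length, 9.13% held the motif. A match is a description of these letters only.

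Among the liver-type transcription factors, 11 of the 18 members listed were tested, of which 1 rose, 1 fell and 9 did not pass. HNF4A, a nuclear receptor of liver and gut epithelia, was at 3.84, 3.16 and 3.53 FPKM in wild type and 3.27, 3.84 and 3.88 FPKM in the libraries labelled PARP3-/- (log2 fold change 0.049 ± 0.0855, adjusted p = 0.857), and its levels overlapped between the groups. CEBPB, a basic leucine zipper factor of inflammation and liver, fell from 38.1, 48.3 and 40.3 to 23.9, 27.9 and 27.9 FPKM (log2 fold change -0.65 ± 0.103, adjusted p = 0.021), and the pioneer factor FOXA1 rose from 5.23, 5.28 and 5.36 to 6.27, 6.76 and 6.64 FPKM (log2 fold change 0.26 ± 0.0513, adjusted p = 0.0418). CEBPB lost the call without wild-type replicate 3, PARP3-/- replicate 1, PARP3-/- replicate 2 or PARP3-/- replicate 3 (adjusted p up to 0.0891). FOXA1 lost it without any 1 library other than wild-type replicate 2 (adjusted p up to 0.208).

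CPS1, the mitochondrial enzyme that makes carbamoyl phosphate for the urea cycle, had the largest fall on the log2(FPKM + 1) scale of all called genes with longer transcripts. It was at 13.2, 11.1 and 13.8 FPKM in wild type and 1.07, 1.23 and 1.27 FPKM in the libraries labelled PARP3-/-, that is, 10.7-fold lower (log2 fold change -2.64 ± 0.0898, adjusted p = 0.000143). As a plain ratio of mean FPKM, less abundant genes fell further, such as CYP4F11, 29-fold lower. The libraries of each group were close together. Of 10 urea cycle genes listed, 5 were tested and CPS1 alone passed. The cytosolic enzyme ASS1, for example, was at 11.7, 13.2 and 10.6 against 12, 13.2 and 12.5 FPKM (log2 fold change 0.085 ± 0.0825, adjusted p = 0.705).

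The imprinted long non-coding RNA H19 was at 9.85, 11 and 9.57 FPKM in wild type and 1.11, 1.59 and 1.32 FPKM in the libraries labelled PARP3-/-, 7.56-fold lower in the libraries labelled PARP3-/- (log2 fold change -2.25 ± 0.0937, adjusted p = 0.000169). The growth factor IGF2, its imprinted neighbour on chromosome 11, was under the limit for testing, at 0.119, 0.211 and 0.154 FPKM in wild type and 0.534, 0.498 and 0.585 FPKM in the libraries labelled PARP3-/-. Of 11 imprinted genes tested, H19 fell, the receptor-binding adaptor GRB10 rose from 10.3, 9.76 and 10.9 to 15.9, 16.9 and 17.2 FPKM (log2 fold change 0.64 ± 0.0578, adjusted p = 0.00243), and the remaining 9 did not pass. Each of the 2 calls was 9.09% of the list, beside 2.94% called higher and 1.36% called lower over all tested genes. The imprinted genes called lower numbered 2 without wild-type replicate 2.

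Several enzymes that handle drugs, lipids and other small molecules fell. Of 37 members listed, 30 were tested, and 2 of them rose, 7 fell and 21 did not pass (median -0.16). CYP4F11, a fatty acid hydroxylase, was at 2.74, 2.65 and 3.39 FPKM in wild type and 0.103, 0.0953 and 0.105 FPKM in the libraries labelled PARP3-/- (log2 fold change -1.83 ± 0.0914, adjusted p = 0.000318). The carboxylesterase CES1 was at 2.18, 2.89 and 2.51 FPKM in wild type and 0.149, 0.324 and 0.161 FPKM in the libraries labelled PARP3-/- (log2 fold change -1.54 ± 0.104, adjusted p = 0.000807). CYP1B1, which oxidizes steroids and aromatic hydrocarbons, was at 14.3, 10.4 and 13.7 against 4.43, 5.24 and 5.01 FPKM (log2 fold change -1.22 ± 0.121, adjusted p = 0.0034), while the receptor that induces it, AHR, did not pass, at 9.51, 5.95 and 8.93 against 5.94, 6.44 and 6.73 FPKM (log2 fold change -0.29 ± 0.156, adjusted p = 0.446). UGT8, which galactosylates ceramide, went the other way, at 0.422, 0.234 and 0.261 against 1.97, 2.15 and 2.3 FPKM (log2 fold change 1.27 ± 0.0878, adjusted p = 0.000877). With 1 library left out at a time the members called lower numbered 3 to 13, the highest number being the one without wild-type replicate 2.

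AKR1B10, an aldo-keto reductase that is a typical target of NRF2, showed the largest fall in FPKM itself among the called genes. It was at 1968, 2187 and 1992 FPKM in wild type and 1504, 1544 and 1595 FPKM in the libraries labelled PARP3-/- (log2 fold change -0.40 ± 0.074, adjusted p = 0.0342). AKR1B10 lost the call without any 1 library other than wild-type replicate 2 (adjusted p up to 0.205). The NRF2 list of 22 genes, which holds NRF2 targets and also NFE2L2 and KEAP1, was tested in full, and 5 fell and 0 rose, with a median of -0.23. The share that fell was 22.7%, beside 1.36% of all tested genes. HMOX1, which degrades haem, fell from 121, 135 and 124 to 75, 80.7 and 80.1 FPKM (log2 fold change -0.68 ± 0.0578, adjusted p = 0.00203). OSGIN1 (-0.58, adjusted p = 0.0102), the malic enzyme ME1 (-0.39, adjusted p = 0.0193), glutathione reductase GSR (-0.35, adjusted p = 0.021) and sulfiredoxin SRXN1 (-0.30, adjusted p = 0.0448) were the others. ME1, GSR and SRXN1 lost the call without any 1 library other than wild-type replicate 2 (adjusted p up to 0.159). OSGIN1 lost it without PARP3-/- replicate 1, PARP3-/- replicate 2 or PARP3-/- replicate 3 (adjusted p up to 0.0597). The count of list members called lower was 1 to 14 with 1 library left out, and 14 without wild-type replicate 2. NFE2L2, which encodes NRF2, was at 30.1, 27.4 and 30 against 26.6, 26.2 and 25.6 FPKM (log2 fold change -0.15 ± 0.0515, adjusted p = 0.2), and its inhibitor KEAP1 was at 34.3, 38.1 and 34.1 against 33.7, 34.9 and 33.4 FPKM (log2 fold change -0.058 ± 0.056, adjusted p = 0.701).

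Other genes that fell belonged to different families, and of those in this paragraph FXYD2, SLC2A3 and RSPO3 passed both thresholds. FXYD2, the gamma subunit of the sodium pump, was at 53.5, 66.1 and 51.9 FPKM in wild type and 21.6, 21.3 and 24.6 FPKM in the libraries labelled PARP3-/- (log2 fold change -1.30 ± 0.104, adjusted p = 0.00162), and none of the other 5 tested genes of the pump passed. SLC2A3, the glucose transporter GLUT3, was at 9.77, 8.98 and 9.89 against 3.42, 4.19 and 3.89 FPKM (log2 fold change -1.13 ± 0.076, adjusted p = 0.000807), as the single call among 23 tested genes of glucose transport and glycolysis. RSPO3, a secreted enhancer of WNT signalling, was at 8.99, 8.99 and 8.82 against 3.55, 3.96 and 4.17 FPKM (log2 fold change -1.02 ± 0.0625, adjusted p = 0.000563). RNF43, the ubiquitin ligase that R-spondins restrain, fell as well, from 5.27, 4.79 and 5.41 to 2.53, 2.8 and 2.52 FPKM (log2 fold change -0.77 ± 0.0673, adjusted p = 0.00218). In the WNT list, 23 of the 32 members listed were tested, of which 2 rose, 3 fell and 18 did not pass. That was 8.7% higher and 13% lower, beside 2.94% and 1.36% of all tested genes. The WNT antagonist SFRP1 was among the rises, from 10.6, 8.93 and 10.4 to 15.7, 16.1 and 16.2 FPKM (log2 fold change 0.63 ± 0.0694, adjusted p = 0.00499). NOTCH3 was at 2.36, 2.09 and 2.5 against 0.581, 0.708 and 0.746 FPKM (log2 fold change -0.98 ± 0.0811, adjusted p = 0.00184) and was the single call among 21 tested Notch genes. These single calls were 4.76% of the tested Notch genes and 4.35% of those of glucose transport and glycolysis, beside 4.3% of all tested genes. Without wild-type replicate 2, 2 Notch genes and 6 WNT genes were called lower, 1 gene of glucose transport and glycolysis was called higher and 2 lower, and 1 gene of the pump was called higher.

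VCAN, a large chondroitin sulphate proteoglycan, was the one tested gene of the matrix lists called lower with all 6 libraries in the fit. It was at 7.8, 5.62 and 7.89 FPKM in wild type and 2.77, 2.6 and 2.82 FPKM in the libraries labelled PARP3-/- (log2 fold change -1.11 ± 0.121, adjusted p = 0.00492). PDE3A, a cyclic nucleotide phosphodiesterase, was at 3.72, 2.89 and 3.91 against 1.01, 1.05 and 0.878 FPKM (log2 fold change -1.18 ± 0.104, adjusted p = 0.00218). The actin-associated FILIP1 was at 2.88, 2.11 and 3.22 against 0.572, 0.548 and 0.685 FPKM (log2 fold change -1.21 ± 0.122, adjusted p = 0.00363). In MUC5B, VCAN, PDE3A, FILIP1 and CYP1B1 the lowest wild-type value was that of replicate 2, and without it their log2 fold changes were -1.48, -1.25, -1.28, -1.34 and -1.35, so all 5 differences were larger without it. NPY4R, a receptor for pancreatic polypeptide with a near-identical copy in the genome, was at 7.56, 7.14 and 7.96 against 3.5, 2.65 and 2.26 FPKM (log2 fold change -1.18 ± 0.121, adjusted p = 0.00381), and its reads cannot be assigned with certainty.

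Neural-type adhesion and guidance genes moved in both directions. Of 39 members listed, 28 were tested, and 7 of them rose, 3 fell and 18 did not pass. PTPRD, a member under the limit for testing, was at 1.7, 1.22 and 1.63 against 0.0747, 0.0328 and 0.0584 FPKM. The limit is on the mean over both groups, so such genes are outside the counts, whichever way they moved. RTN4RL2, a Nogo-type receptor, was at 18.3, 21.2 and 18.6 FPKM in wild type and 5.25, 7.13 and 6.94 FPKM in the libraries labelled PARP3-/- (log2 fold change -1.46 ± 0.114, adjusted p = 0.00147). NTRK3, the receptor for neurotrophin 3, was at 10.6, 10.9 and 10.9 against 5.07, 5.08 and 5.6 FPKM (log2 fold change -0.92 ± 0.0543, adjusted p = 0.000512), and the orphan receptor GPR37 was at 2.6, 2.47 and 2.94 against 1.13, 1.13 and 1.12 FPKM (log2 fold change -0.79 ± 0.0719, adjusted p = 0.00249). DPYSL3, a cytoskeletal protein of growing axons, was the most abundant of the genes past both thresholds, at 55.7, 51.6 and 56 FPKM in wild type and 110.1, 116 and 120.5 FPKM in the libraries labelled PARP3-/- (log2 fold change 1.07 ± 0.0553, adjusted p = 0.000326). The Eph ligand EFNB2 (0.65, adjusted p = 0.0028) and the Eph receptor EPHB2 (0.48, adjusted p = 0.00308) also rose. CPLX2, a regulator of vesicle fusion outside the list, fell from 227, 217 and 219 to 103, 122 and 116 FPKM (log2 fold change -0.96 ± 0.0688, adjusted p = 0.00106). With 1 library left out at a time, 3 to 10 members of the list were called higher and 3 to 4 lower.

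RRAD led the rises among genes with longer transcripts on the log2(FPKM + 1) scale, while as a plain ratio of mean FPKM less abundant genes such as PXDN rose further. This small GTPase of the RGK family, which binds calcium channel beta subunits, was at 5.98, 7.12 and 5.96 FPKM in wild type and 28.9, 30.5 and 29.2 FPKM in the libraries labelled PARP3-/-, 4.65-fold higher in the libraries labelled PARP3-/- (log2 fold change 2.06 ± 0.0718, adjusted p = 0.000143). Its relative GEM did not pass, at 3.97, 3.21 and 3.92 against 4.5, 4.82 and 4.46 FPKM (log2 fold change 0.25 ± 0.0808, adjusted p = 0.175). UPK1B, a tetraspanin of the urothelial plaque, was at 0.795, 0.793 and 0.539 FPKM in wild type and 5.03, 5.19 and 5.59 FPKM in the libraries labelled PARP3-/- (log2 fold change 1.88 ± 0.0852, adjusted p = 0.000232), while TSPAN8 of the same superfamily fell (-0.63, adjusted p = 0.0179). TSPAN8 lost the call without wild-type replicate 1, wild-type replicate 3, PARP3-/- replicate 2 or PARP3-/- replicate 3 (adjusted p up to 0.0955). ANXA10, a calcium-dependent membrane-binding protein, was at 6.52, 7.13 and 5.61 FPKM in wild type and 19.6, 20.6 and 20 FPKM in the libraries labelled PARP3-/- (log2 fold change 1.51 ± 0.0802, adjusted p = 0.000334). The actin-binding ABLIM3 was at 2.84, 3.05 and 2.97 FPKM in wild type and 9.82, 9.44 and 10.6 FPKM in the libraries labelled PARP3-/- (log2 fold change 1.47 ± 0.06, adjusted p = 0.000169). In these 4 genes that rose, the spread within each group was small beside the gap between the groups.

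Annexins as a family moved both ways. ANXA8, which has near-identical copies, rose from 11.7, 13.5 and 11.6 to 21.2, 21.5 and 22.4 FPKM (log2 fold change 0.78 ± 0.0673, adjusted p = 0.00215). The very abundant ANXA1, an anti-inflammatory annexin, fell from 864, 898 and 867 to 626, 609.8 and 625 FPKM (log2 fold change -0.50 ± 0.0526, adjusted p = 0.00434), and ANXA13 fell less (-0.30, adjusted p = 0.0367). ANXA1 lost the call without PARP3-/- replicate 2 (adjusted p 0.0574). ANXA13 lost it without any 1 library other than wild-type replicate 2 (adjusted p up to 0.175). Leaving out wild-type replicate 2 gave 5 annexins called higher and 2 lower. The other 7 tested annexins, ANXA2 and ANXA5 among them, did not pass.

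**Figure D3:**
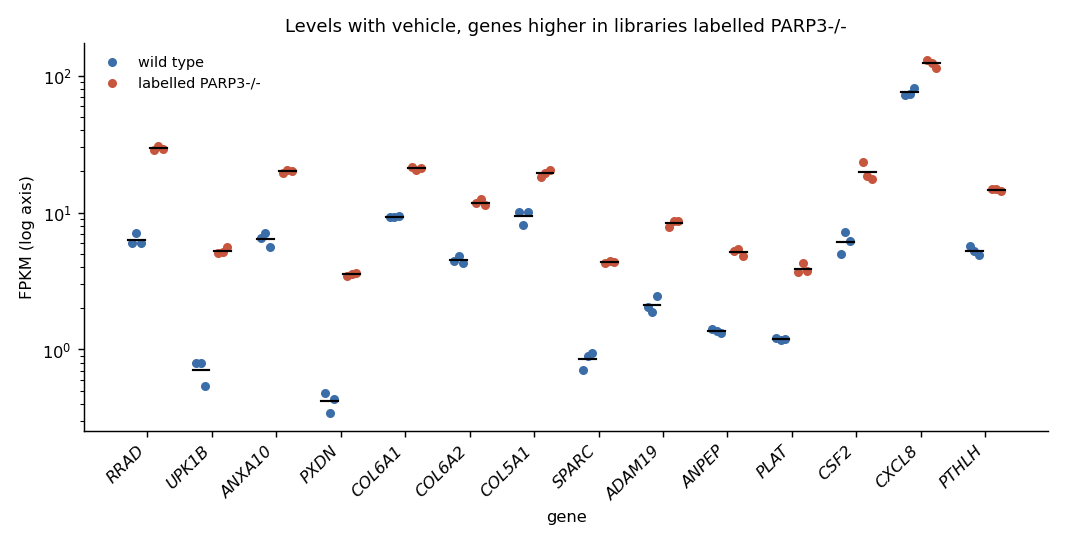
FPKM (log axis) of 14 genes in each vehicle library, with wild type in blue, libraries labelled PARP3-/- in red and a bar at the mean of 3 libraries. All red points lie above all blue points in each gene, with the widest gap in PXDN (from 0.478, 0.343 and 0.432 to 3.46, 3.55 and 3.59 FPKM).

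Genes of the extracellular matrix followed, and those that passed were nearly all higher in the libraries labelled PARP3-/-. For the basement membrane, the sheet under an epithelium, 16 of the 23 members listed were tested, of which 5 rose, 0 fell and 11 did not pass (median 0.24). PXDN, the peroxidase that cross-links collagen IV, was at 0.478, 0.343 and 0.432 FPKM in wild type and 3.46, 3.55 and 3.59 FPKM in the libraries labelled PARP3-/- (log2 fold change 1.68 ± 0.0684, adjusted p = 0.000169). The collagen IV chain COL4A6 was at 16.4, 14 and 16.7 against 26.4, 25.4 and 25.9 FPKM (log2 fold change 0.69 ± 0.0725, adjusted p = 0.00429), and the proteoglycan HSPG2, or perlecan, was at 9.19, 7.21 and 9.32 against 14.2, 13.9 and 14.1 FPKM (log2 fold change 0.66 ± 0.0934, adjusted p = 0.0142). HSPG2 lost the call without PARP3-/- replicate 1, PARP3-/- replicate 2 or PARP3-/- replicate 3 (adjusted p up to 0.0822). With 1 library left out the list had 3 to 9 members called higher, and without wild-type replicate 2 it had 9 higher and 2 lower.

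For interstitial collagens and matrix glycoproteins, 20 of the 34 members listed were tested, of which 8 rose, 1 fell and 11 did not pass (median 0.28). COL6A1 and COL6A2, which encode chains of the microfibrillar collagen VI and are neighbours on chromosome 21, rose side by side. COL6A1 was at 9.22, 9.33 and 9.41 FPKM in wild type and 21.5, 20.5 and 21.2 FPKM in the libraries labelled PARP3-/- (log2 fold change 1.10 ± 0.0426, adjusted p = 0.000169), and COL6A2 was at 4.42, 4.79 and 4.25 against 11.7, 12.5 and 11.3 FPKM (log2 fold change 1.22 ± 0.0625, adjusted p = 0.000326). COL5A1, a collagen of thin fibrils, was at 10.1, 8.17 and 10 against 18.4, 19.5 and 20.3 FPKM (log2 fold change 0.97 ± 0.0868, adjusted p = 0.00227). VCAN was the exception noted above. The matrix glycoprotein FN1, by contrast, did not pass, at 31.6, 25.4 and 32.2 against 35.1, 34.5 and 35.7 FPKM (log2 fold change 0.24 ± 0.0912, adjusted p = 0.254). The number called higher was 6 to 12 with 1 library left out and 12 without wild-type replicate 2.

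Among matricellular proteins and enzymes that modify collagen, those that passed followed the same direction: 15 of the 28 members listed were tested, of which 6 rose, 0 fell and 9 did not pass (median 0.21). SPARC, a collagen-binding glycoprotein, was at 0.706, 0.898 and 0.948 FPKM in wild type and 4.25, 4.4 and 4.36 FPKM in the libraries labelled PARP3-/- (log2 fold change 1.53 ± 0.0729, adjusted p = 0.000272). SPOCK1, a proteoglycan related to it, was at 0.294, 0.227 and 0.271 against 1.79, 1.79 and 1.73 FPKM (log2 fold change 1.13 ± 0.0686, adjusted p = 0.000555). The lysyl oxidase LOXL2 rose from 69, 68.5 and 68.3 to 93.5, 96.9 and 99.7 FPKM (log2 fold change 0.49 ± 0.0424, adjusted p = 0.00215), and CTGF rose with a wider spread, from 18.2, 21.2 and 23.1 to 41.3, 35.1 and 28.5 FPKM (log2 fold change 0.71 ± 0.144, adjusted p = 0.0474). CTGF lost the call without wild-type replicate 1, wild-type replicate 2, wild-type replicate 3, PARP3-/- replicate 1 or PARP3-/- replicate 2 (adjusted p up to 0.186). THBS1 was at 12.6, 9.75 and 12.7 against 13.6, 13.6 and 13.5 FPKM (log2 fold change 0.21 ± 0.0982, adjusted p = 0.364). SMOC1, of the same list but under the limit for testing, was lower without overlap, at 0.801, 0.9 and 0.829 against 0.0723, 0.0432 and 0.0711 FPKM. Of the list, 3 to 5 members were called higher with 1 library left out.

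Those proteases of the cell surface and the plasminogen system, which dissolves fibrin and matrix, that passed were higher as well. Of 36 members listed, 21 were tested, and 8 of them rose, 0 fell and 13 did not pass (median 0.17). ADAM19, a membrane metalloprotease, was at 2.05, 1.88 and 2.45 FPKM in wild type and 7.85, 8.74 and 8.73 FPKM in the libraries labelled PARP3-/- (log2 fold change 1.60 ± 0.0843, adjusted p = 0.000334). ANPEP, or aminopeptidase N, was at 1.42, 1.37 and 1.33 FPKM in wild type and 5.23, 5.4 and 4.83 FPKM in the libraries labelled PARP3-/- (log2 fold change 1.37 ± 0.0629, adjusted p = 0.000232). Both plasminogen activators rose: the tissue type PLAT was at 1.21, 1.18 and 1.19 against 3.68, 4.28 and 3.72 FPKM (log2 fold change 1.16 ± 0.0709, adjusted p = 0.000563), and the urokinase PLAU was at 124, 129 and 122 against 192, 179.6 and 181 FPKM (log2 fold change 0.55 ± 0.0486, adjusted p = 0.00218). SERPINE2, an inhibitor of both, rose at the same time (0.50, adjusted p = 0.00119). The urokinase receptor PLAUR (0.19, adjusted p = 0.141) and the inhibitor TIMP1 (0.20, adjusted p = 0.441) did not pass. With 1 library left out, 6 to 10 members were called higher, and 1 was called lower without wild-type replicate 2.

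Of the receptors for this matrix, 2 of 10 tested integrin chains rose and 0 fell, beside 2.94% called higher over all tested genes. The number called higher was 1 to 4 when 1 library was left out (4 without wild-type replicate 2). It was 0 with the replicate number as a block. The fibronectin receptor chain ITGA5 was at 11.8, 11.9 and 12.1 against 15.7, 15.4 and 15.9 FPKM (log2 fold change 0.37 ± 0.0414, adjusted p = 0.00558), and the laminin receptor chain ITGA3 was at 106, 102 and 103 against 120.2, 122 and 124 FPKM (log2 fold change 0.23 ± 0.0408, adjusted p = 0.0293). ITGA3 lost the call without any 1 library other than wild-type replicate 2 (adjusted p up to 0.152). Surface proteins of neighbouring function rose further. NT5E, the ecto-enzyme that makes adenosine, was at 18.6, 16.3 and 18.1 against 37.1, 37.7 and 35.7 FPKM (log2 fold change 1.02 ± 0.0595, adjusted p = 0.00048), and the hyaluronan receptor CD44 was at 156, 144 and 157 against 219, 216 and 219 FPKM (log2 fold change 0.52 ± 0.051, adjusted p = 0.00332).

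Epithelial and mesenchymal genes gave a mixed account. Of 30 members listed, 23 were tested, and 4 of them rose, 2 fell and 17 did not pass, and without wild-type replicate 2 the calls were 7 higher and 3 lower. The epithelial adhesion genes CDH1 and EPCAM fell, CDH1 from 14.8, 12.6 and 14.7 to 10.2, 9.85 and 10.6 FPKM (log2 fold change -0.42 ± 0.0718, adjusted p = 0.0274) and EPCAM from 2.36, 2.15 and 1.86 to 1.15, 1.2 and 1.15 FPKM (log2 fold change -0.53 ± 0.0795, adjusted p = 0.0178). CDH2, the cadherin of mesenchymal and neural cells, rose from 15.2, 13.5 and 15.7 to 21, 22 and 21.5 FPKM (log2 fold change 0.51 ± 0.0635, adjusted p = 0.00828), and so did the actin-binding TAGLN, from 1.82, 2.2 and 1.94 to 4.49, 4.55 and 4.26 FPKM (log2 fold change 0.86 ± 0.0692, adjusted p = 0.00162). The epithelial keratin KRT19 rose, however, from 83.3, 103 and 85.2 to 155, 167 and 167 FPKM (log2 fold change 0.85 ± 0.088, adjusted p = 0.0041). Vimentin was at 768, 848 and 782 against 929, 984 and 989.8 FPKM, without overlap but short of the threshold (0.28, adjusted p = 0.0801) in the gene VIM, and the repressor of CDH1 ZEB1 was at 4.8, 3.25 and 4.03 against 4.96, 4.75 and 4.42 FPKM (log2 fold change 0.19 ± 0.116, adjusted p = 0.497). CDH1 lost the call without any 1 library other than wild-type replicate 2 (adjusted p up to 0.139). EPCAM lost it without wild-type replicate 1, PARP3-/- replicate 1, PARP3-/- replicate 2 or PARP3-/- replicate 3 (adjusted p up to 0.0845). CDH2 lost it without PARP3-/- replicate 2 or PARP3-/- replicate 3 (adjusted p up to 0.063).

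In the TGF-beta and BMP pathway, 35 of the 41 members listed were tested, of which 7 rose, 2 fell and 26 did not pass (median 0.054). LTBP2, a latent TGF-beta binding protein of microfibrils, was at 2.91, 2.67 and 2.82 against 5.35, 5.33 and 5.49 FPKM (log2 fold change 0.75 ± 0.0544, adjusted p = 0.00109). PMEPA1, an inhibitor that TGF-beta induces, was at 93.3, 90.6 and 93.5 against 124, 136 and 131 FPKM (log2 fold change 0.49 ± 0.049, adjusted p = 0.00347). The inhibitory SMAD7 (0.38, adjusted p = 0.0199) and the activin antagonist FST (0.50, adjusted p = 0.0187) rose too, while the activin subunit INHBB fell (-0.51, adjusted p = 0.00771). None of the tested receptors or of SMAD1 to SMAD6 passed. SMAD7 lost the call without any 1 library other than wild-type replicate 2 (adjusted p up to 0.119). FST lost it without wild-type replicate 3, PARP3-/- replicate 1, PARP3-/- replicate 2 or PARP3-/- replicate 3 (adjusted p up to 0.0977). INHBB lost it without PARP3-/- replicate 1 or PARP3-/- replicate 2 (adjusted p up to 0.0561). The count of members called higher ranged from 2 to 8 over the fits that leave out 1 library.

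Of the cytokines and NF-kB targets that passed, all but 1 were higher. Of 29 members listed, 26 were tested, and 11 of them rose, 1 fell and 14 did not pass, with a median of 0.40. The shares were 42.3% higher and 3.85% lower, beside 2.94% and 1.36% of all tested genes. CSF2, the growth factor GM-CSF, was at 4.96, 7.19 and 6.22 FPKM in wild type and 23.5, 18.6 and 17.7 FPKM in the libraries labelled PARP3-/- (log2 fold change 1.56 ± 0.146, adjusted p = 0.00263). PTHLH, the hormone-related peptide that many lung cancers secrete, was at 5.66, 5.21 and 4.92 FPKM in wild type and 14.8, 14.9 and 14.4 FPKM in the libraries labelled PARP3-/- (log2 fold change 1.33 ± 0.0582, adjusted p = 0.000213). The receptor IL7R was at 2.27, 1.91 and 2.16 against 5.22, 5.19 and 4.97 FPKM (log2 fold change 0.98 ± 0.0656, adjusted p = 0.000807), and the neutrophil attractant CXCL8 was at 72, 73.3 and 81.8 against 129.6, 125 and 115 FPKM (log2 fold change 0.69 ± 0.0706, adjusted p = 0.00374). IL1B, close to the limit for testing, was at 0.484, 0.812 and 0.606 against 2.05, 1.52 and 1.6 FPKM (log2 fold change 0.74 ± 0.113, adjusted p = 0.0185).

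The attractants CXCL5 and CCL2, also of this list, were abundant. CXCL5 rose from 389.9, 323 and 373 to 493, 546 and 476 FPKM (log2 fold change 0.48 ± 0.0904, adjusted p = 0.0366), and CCL2 rose from 196, 221 and 193 to 269, 257 and 261 FPKM (log2 fold change 0.37 ± 0.0648, adjusted p = 0.0304). ICAM1, an adhesion molecule and a usual target of NF-kB, fell instead (-0.38, adjusted p = 0.0248), and the chemokine CXCL1 was at 140.2, 148 and 142 against 131, 136 and 126 FPKM (log2 fold change -0.13 ± 0.05, adjusted p = 0.261). The list's members therefore did not move as 1 block. CXCL5, CCL2, ICAM1 and IL1B lost the call without any 1 library other than wild-type replicate 2 (adjusted p up to 0.167). The number called higher ran from 4 to 18 with 1 library left out, and it was 18 without wild-type replicate 2.

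Immediate early genes and feedback regulators of growth factor signalling had a median of 0.37. Of 21 tested, 5 rose (23.8%, beside 2.94% of all tested genes) and 0 fell. SPRY2, an inhibitor of receptor tyrosine kinase signalling, was at 6.47, 6.33 and 7.11 against 11.9, 11.3 and 11.6 FPKM (log2 fold change 0.72 ± 0.0568, adjusted p = 0.00152), and the ERK phosphatase DUSP6 was at 3.88, 3.92 and 3.86 against 6.38, 6.25 and 5.34 FPKM (log2 fold change 0.51 ± 0.0716, adjusted p = 0.0138). Among the AP-1 subunits, JUN (0.39, adjusted p = 0.0138) and FOSL1 (0.40, adjusted p = 0.0339) rose, whereas FOS was at 32.4, 36.9 and 45.9 against 65.1, 62.5 and 44 FPKM (log2 fold change 0.56 ± 0.18, adjusted p = 0.18). DUSP6 lost the call without wild-type replicate 1, wild-type replicate 3, PARP3-/- replicate 1 or PARP3-/- replicate 2 (adjusted p up to 0.0853). JUN lost it without wild-type replicate 1, PARP3-/- replicate 1, PARP3-/- replicate 2 or PARP3-/- replicate 3 (adjusted p up to 0.0777). FOSL1 lost it without any 1 library other than wild-type replicate 2 (adjusted p up to 0.141). Over these fits 1 to 5 members were called higher.

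The rises that were largest in FPKM itself came from abundant genes with modest fold changes. The metallothionein MT2A, which binds zinc and copper, was at 385, 525 and 419 FPKM in wild type and 656, 759 and 743 FPKM in the libraries labelled PARP3-/- (log2 fold change 0.71 ± 0.125, adjusted p = 0.0308). TGM2, a transglutaminase that cross-links proteins, was at 315, 311 and 314 FPKM in wild type and 412, 420.4 and 428 FPKM in the libraries labelled PARP3-/- (log2 fold change 0.42 ± 0.0455, adjusted p = 0.00462). KRT19, CD44 and CXCL5, given above, also had rises of this kind. In the opposite direction the amino acid transporter SLC7A5 fell from 368, 369 and 369 to 266, 282 and 287 FPKM (log2 fold change -0.41 ± 0.05, adjusted p = 0.00816). MT2A lost the call without any 1 library other than wild-type replicate 2 (adjusted p up to 0.151). TGM2 lost it without PARP3-/- replicate 2 (adjusted p 0.0503). SLC7A5 lost it without wild-type replicate 3 or PARP3-/- replicate 2 (adjusted p up to 0.064).

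**Figure D4:**
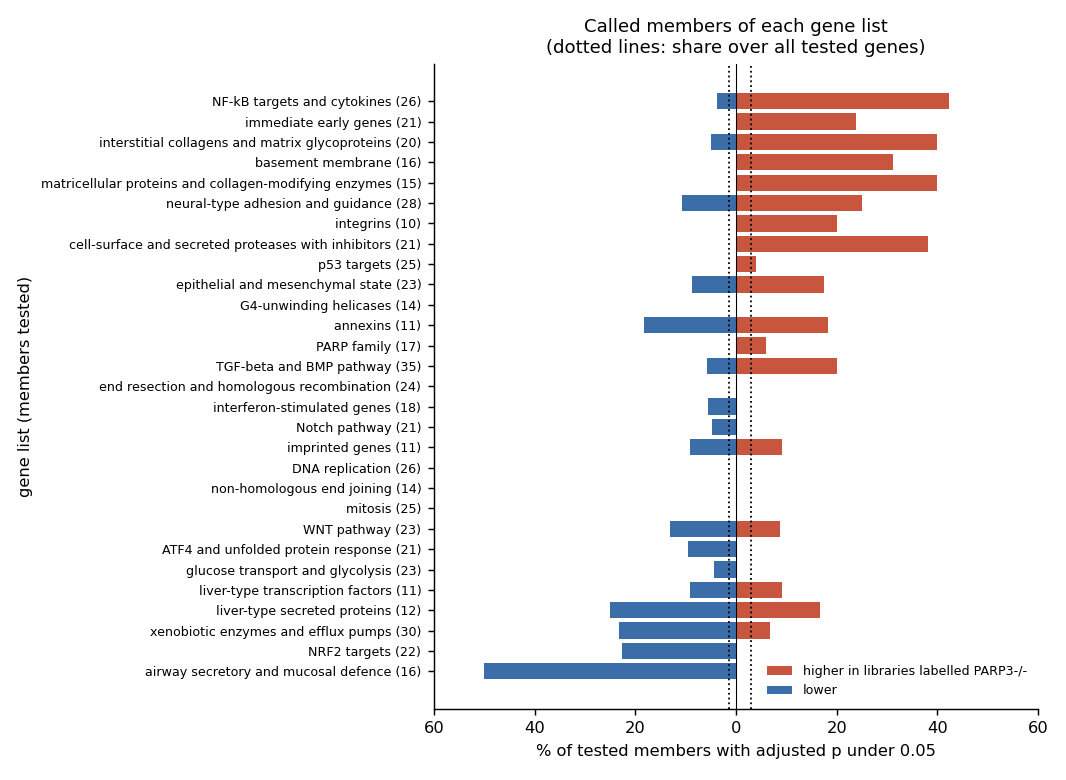
Share of the tested members of each gene list (at least 10 tested, number in parentheses) that were called at an adjusted p under 0.05, with those higher in the libraries labelled PARP3-/- to the right and those lower to the left. The dotted lines mark 2.94% and 1.36%, the shares over all tested genes. The lists were chosen with earlier results of these data known, so a bar beyond a line is a description and not a test. The bars reach 42.3% higher for NF-kB targets and cytokines and 50% lower for airway secretory and mucosal defence, while the lists for DNA repair, replication and mitosis have no bar.

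No called gene was found in the lists for the pathways in which PARP3 works, which are short beside the 4.3% of all tested genes that were called. For non-homologous end joining, 0 of 14 tested genes passed (limma, adjusted p), and 1 had an unadjusted p under 0.05. XRCC6, which encodes KU70, was at 217, 248 and 232 FPKM in wild type and 215, 219 and 228 FPKM in the libraries labelled PARP3-/- (log2 fold change -0.073 ± 0.0617, adjusted p = 0.651). For end resection and homologous recombination, 0 of 24 passed and 1 had an unadjusted p under 0.05, and for G4-unwinding helicases 0 of 14 passed and 1 had an unadjusted p under 0.05. RAD51C was at 57.9, 64.6 and 58 against 63.5, 64.1 and 61 FPKM (log2 fold change 0.064 ± 0.0569, adjusted p = 0.667), and DDX5 was at 185, 176 and 182 against 205, 194 and 189.7 FPKM (log2 fold change 0.12 ± 0.0503, adjusted p = 0.322). Without wild-type replicate 2, 1 end-joining gene was called higher and 2 lower.

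DNA replication genes numbered 26 and mitotic genes 25, and none passed with all 6 libraries. An unadjusted p under 0.05 was seen in 2 and 3 of them. PCNA was at 385, 409 and 379.8 FPKM in wild type and 385, 375 and 390.4 FPKM in the libraries labelled PARP3-/- (log2 fold change -0.028 ± 0.0525, adjusted p = 0.865) and UBE2C was at 176, 207 and 175 against 167, 178 and 178 FPKM (log2 fold change -0.088 ± 0.0758, adjusted p = 0.655). In one model of all 12 libraries, 2 replication genes were called higher, and without wild-type replicate 2, 1 mitotic gene was. Of the PARP family, 17 genes were tested and TIPARP, which the AHR induces, was the single call, from 9.49, 8.05 and 9.24 to 12.2, 13 and 12.6 FPKM (log2 fold change 0.46 ± 0.0686, adjusted p = 0.0175). This call was 5.88% of the family members tested, beside 4.3% of all tested genes. TIPARP lost the call without wild-type replicate 3, PARP3-/- replicate 1, PARP3-/- replicate 2 or PARP3-/- replicate 3 (adjusted p up to 0.105). PARP1 (0.079, adjusted p = 0.405) and PARP2 (-0.058, adjusted p = 0.646) did not pass.

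Stress responses were examined next. Of 25 tested p53 targets, the death receptor FAS rose (0.37, adjusted p = 0.0395) and 24 did not pass, a share of 4% beside 4.3% of all tested genes, with CDKN1A at 85.6, 94.8 and 80.5 against 95.6, 102 and 102 FPKM (log2 fold change 0.20 ± 0.0696, adjusted p = 0.208). FAS lost the call without wild-type replicate 1, wild-type replicate 2, wild-type replicate 3, PARP3-/- replicate 1, PARP3-/- replicate 2 or PARP3-/- replicate 3 (adjusted p up to 0.135). The median of the p53 list was 0.13, and 11 of its 25 members had an unadjusted p under 0.05 (limma), beside 1974 of all 11817 genes. Without wild-type replicate 2, 8 members were called higher and 1 lower, and 7 were called higher in one model of all 12 libraries. Of 21 genes of the ATF4 and unfolded protein responses, the mTORC1 inhibitor DDIT4 (-0.51, adjusted p = 0.0174) and the pseudokinase TRIB3 (-0.45, adjusted p = 0.0214) fell, 9.52% of the list beside 1.36% of all tested genes. DDIT4 lost the call without wild-type replicate 3, PARP3-/- replicate 2 or PARP3-/- replicate 3 (adjusted p up to 0.0811). TRIB3 lost it without wild-type replicate 3, PARP3-/- replicate 1, PARP3-/- replicate 2 or PARP3-/- replicate 3 (adjusted p up to 0.116).

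The labelled cell type was checked against marker genes. All 6 epithelial markers of A549 were tested, and their summed level was 7218 to 8630 FPKM in wild type and 6955 to 7698 FPKM in the libraries labelled PARP3-/-. Of 16 alveolar markers 2 were tested: CAV1 rose (0.29, adjusted p = 0.0307) and ABCA3 did not pass. The surfactant gene SFTPB was listed at 0 in all 6 libraries. Of 10 fibroblast markers 1 was tested, COL1A1, at 0.572, 0.83 and 0.68 against 1.27, 1.31 and 1.35 FPKM (log2 fold change 0.45 ± 0.0822, adjusted p = 0.0341). The summed fibroblast level was 0.844 to 1.16 FPKM in wild type and 1.75 to 2.09 FPKM in the libraries labelled PARP3-/-. The defining fibroblast genes COL3A1 and DCN were at or near 0, with a maximum of 0.0397 FPKM and 0 FPKM. LUM, another marker of fibroblasts, was under the limit for testing, at 0.0578, 0.0915 and 0.041 against 0.231, 0.454 and 0.281 FPKM, and the groups did not overlap. None of 9 endothelial markers was tested (sum 0.753 to 0.943 FPKM and 1.25 to 1.57 FPKM). Of 10 immune markers, CD68, a lysosomal protein of many cell types, rose (0.37, adjusted p = 0.0352), CD14 did not pass, and the leukocyte gene PTPRC was at most 0.00776 FPKM. ITGAM, an integrin of myeloid cells, was under the limit on average, at 0.592, 0.631 and 0.689 against 1.01, 0.971 and 1.07 FPKM without overlap. The summed immune level was 18.5 to 21.3 FPKM in wild type and 25 to 28.6 FPKM in the libraries labelled PARP3-/-. CAV1, COL1A1 and CD68 lost the call without any 1 library other than wild-type replicate 2 (adjusted p up to 0.172). Without wild-type replicate 2, 2 alveolar and 2 immune markers were called higher.

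By position, chromosome 17 had the highest median difference, a pattern noticed after the values were seen and given without a test. The median log2 fold change of its 738 tested genes was 0.079, and 79.4% of them were above 0, against 55.7% of all tested genes. The medians of the other 22 chromosomes (1 to 22 and X) ran from -0.027 to 0.04. In blocks of 25 neighbouring genes, all 29 blocks of chromosome 17 had a median above 0, from 0.028 to 0.14, as did 63.7% of the 422 blocks elsewhere. Of its 738 genes, 30 were called higher and 6 lower, beside 347 higher and 161 lower of all 11817 tested genes. Chromosome 10 came next: its median over 474 genes was 0.04, 67.1% of them were above 0, and all 18 of its blocks were above 0 with vehicle and 15 with pyridostatin. The median of chromosome 10 was 0.013 without wild-type replicate 2.

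Within each library the genes of chromosome 17 were set against those of all other chromosomes, as the median deviation from the mean over 12 libraries. The values were -0.064, -0.0041 and -0.056 in wild type and 0.028, 0.027 and 0.033 in the libraries labelled PARP3-/- (log2 scale). The libraries of the 2 genotypes did not overlap, and those of the pyridostatin groups did not either, at -0.037, -0.04 and -0.023 against 0.025, 0.045 and 0.037. All 29 blocks were above 0 there as well. After quantile normalization the median of chromosome 17 was 0.062, without wild-type replicate 2 it was 0.085, and with all libraries shifted to one median it was 0.038. Groups of vehicle libraries did not overlap on 7 of the 23 chromosomes, and on 2 of them, 10 and 17, in the same direction with both treatments. Copy number was not measured here.

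**Figure D5:**
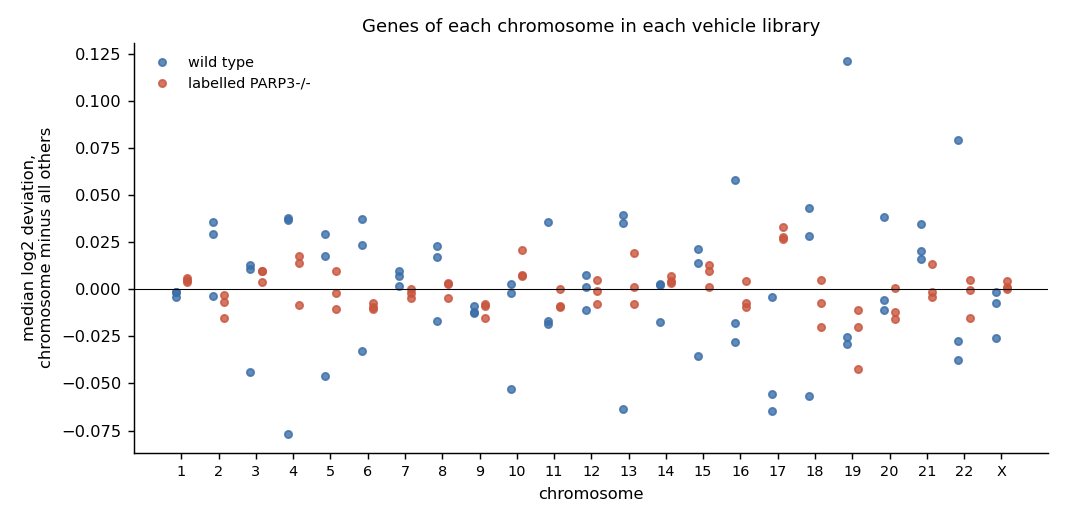
Median log2 deviation of the tested genes of each chromosome from the mean over 12 libraries, minus that of all other chromosomes, for each vehicle library (wild type in blue, labelled PARP3-/- in red). On chromosome 17 the red points (0.027 to 0.033) lie above 0 and the blue points (-0.064 to -0.0041) below it, and the widest blue spreads, such as those of chromosomes 4, 19 and 22, come from wild-type replicate 2.

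Very short RNAs passed the thresholds on very few reads. Their FPKM values in different libraries were whole multiples of 1 step within 3%, the value that a single read would give. MIR1225, a microRNA precursor, was listed at 79.5, 75.5 and 84.5 FPKM in wild type, 1 step in each library, and at 0 in the libraries labelled PARP3-/-. SNORA20, a small nucleolar RNA that guides pseudouridylation, was listed at 0 in wild type and at 14.1, 8.42 and 28.2 FPKM, that is, 2, 1 and 3 steps. SNORA51 was at 3 steps in each wild-type library and at 2, 1 and 1 steps in the others. With pyridostatin, MIR1225 stood at 1, 0 and 0 steps in wild type and at 0 in all libraries labelled PARP3-/-. These 3 were the calls among 210 small RNAs tested. Their large FPKM values therefore stand for differences of 1 to 3 reads, and no fold change is given for those listed at 0. Without small RNAs and spike-ins, 43 genes were past both thresholds, and 637 were called at any fold change.

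The pyridostatin libraries, which share no sample with the vehicle libraries, allowed the same differences to be set side by side. Of the 42 genes past both thresholds that are neither short RNAs nor spike-ins, 41 had a difference of the same sign with pyridostatin, from 0.903 to 2.79 in absolute size. For CPS1 the differences were -2.64 with vehicle and -2.79 with pyridostatin. For H19 they were -2.25 and -2.23, for RRAD 2.06 and 2.28, and for PXDN 1.68 and 1.69. The exception was TGIF2-C20orf24, a read-through name whose reads overlap those of 2 genes, with 1.07 and -0.78. TGIF2-C20orf24 lost the call without wild-type replicate 1, wild-type replicate 2, wild-type replicate 3, PARP3-/- replicate 1 or PARP3-/- replicate 2 (adjusted p up to 0.153). CEBPB and C4BPB, of the liver-type lists, had smaller differences with pyridostatin, at -0.65 and -0.062 and at 0.76 and 0.22. C3, also of these lists, did not, at 0.45 and 0.47, and the fibrinogen chains were among the 41 genes above. Whether any of these differences depended on treatment was not tested.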

How the data were processed

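RNA-seq of A549 cells was used: 3 wild-type and 3 PARP3-/- libraries, all with vehicle for 24 h, grouped by their labels. Per the labels and the study's methods, total RNA gave stranded mRNA libraries that were sequenced as single-end 75-base reads. The authors deposited FPKM values from Cufflinks (no version given), 1 column per library and none pooled. The submitters' processing notes also name bcl2fastq 2.16 and STAR 2.5, and the builds hg19 and mm9 without their roles. Scaling to transcript length and mapped reads is therefore already in the values, and the amount of RNA per cell is not. The study tested counts, which were not used here.

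Of 25365 names, 28 had been turned into dates and 2 occur more than once, and both were kept. Genes that averaged 1 FPKM or more in the 6 libraries entered the test, made on log2(FPKM + 1) with limma 3.58.1 in R 4.3.3 (eBayes with a trend, no block), with Benjamini-Hochberg adjustment. Calls required an adjusted p under 0.05, and for both thresholds an absolute log2 fold change above 1. The procedure was tested on simulated data with 200 changed genes. Gene lists and libraries were chosen with earlier results of these data known. Named genes are PARP3, up to 12 rises and 12 falls past both thresholds, up to 4 called members of each list and 6 genes each way by FPKM. Other named genes were chosen after their values were seen, and a few genes the rule selects are not reported here. Chromosomes and neighbours came from RefSeq genes on GRCh38.p14 (98.2% of tested genes matched), transcript lengths from GENCODE release 29. Tables and figures were made in Python 3.11.15 with numpy 2.4.6, pandas 2.3.3, scipy 1.17.1 and matplotlib 3.10.9. The alternatives were another pseudocount, other filters, scalings, models and fold thresholds, a replicate block and each library left out. Leaving out short RNAs and spike-ins, and counts per list, were added after the data were seen. The replicates are biological by the study's methods, but no source used here names separate clones, so p-values measure the spread between these cultures.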

Additional observations from a re-analysis of the deposited data

Results flagged for a closer look

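The table also holds 92 names of ERCC spike-in sequences, which are synthetic RNAs added to some RNA samples, and neither the labels nor the study's methods mention them. They were not used for scaling. Their summed level was 1974, 1364 and 1360 FPKM in wild-type vehicle replicates 1, 2 and 3, and 2463, 2025 and 2958 FPKM in PARP3-/- vehicle replicates 1, 2 and 3, so signal was present in every library and the groups did not overlap. The ratio of the group means was 1.58. Of 26 spike-in names tested, 3 were called, beside 4.3% of all tested genes. ERCC-00051 passed both thresholds, at 1.97, 1.4 and 2.1 FPKM in wild type against 5.91, 4.54 and 3.88 FPKM in the libraries labelled PARP3-/- (log2 fold change 1.03, adjusted p = 0.0171). With pyridostatin the log2 difference of ERCC-00051 was -0.28, and the ERCC totals of the genotypes overlapped, at 2425, 1616 and 1338 FPKM in wild type and 3503, 1696 and 733 FPKM in the libraries labelled PARP3-/-. FPKM values are relative to the mapped reads of a library, so a difference in the total RNA of a cell would not be seen in them. What these spike-in values stand for was not tested.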

How the results depend on the processing

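Over the alternatives, the count past both thresholds (46) was 86 with a pseudocount of 0.1 FPKM, 23 with a mean of at least 5 FPKM (fewer genes tested), 172 with a log2 fold threshold of 0.58 and 16 with one of 1.5, and 45 to 52 with 1 library left out. The number with an adjusted p under 0.05 (508) was 297 with a mean of at least 5 FPKM, 1126 in one model of 12 libraries, and 168 to 1159 with 1 library left out, the highest without wild-type replicate 2 (fewer samples, and the cause of this rise was not tested). With the replicate number as a block it was 191, and 45 passed both thresholds. The deviations of same-numbered libraries from their group means correlated across genes at 0.105, 0.0892 and 0.0614, each higher than with another number (at most -0.0175). Such deviations cancel out within a group, so positive values for the same number push the others below 0. The contrast is therefore a weak hint of pairing, and the design gives none. PARP3 kept its direction and missed the threshold in all 14 alternatives that tested it (adjusted p 0.137 to 0.632). Its mean was too low for the filter at 5 FPKM. PCNA, not called, changed sign after quantile normalization (0.024) and without wild-type replicate 2, with a range of -0.049 to 0.0034 over the fits that leave out 1 library. Of the 46 genes past both thresholds, 43 kept an adjusted p under 0.05 with any 1 library left out, the exceptions being SNORA51, ERCC-00051 and TGIF2-C20orf24. Of 95 further called genes in the lists and the rule, 31 did. Read depth limits genes near 1 FPKM and very short RNAs, where 1 read can decide a call.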
